A study of Mus musculus with 9 samples.

Results

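The genes described here are 7 receptors with which macrophages bind and take up spent proteins, sugars, lipids and particles: Mrc1, Cd163, Stab1, Lyve1, Msr1, Cd36 and Marco. They were chosen by gene symbol and are 7 of the 31053 genes counted in each library. Mrc1 encodes the mannose receptor CD206, Cd163 the receptor for haptoglobin-hemoglobin complexes, and Stab1 stabilin-1, a large receptor of endocytosis and intracellular sorting. Lyve1 encodes a hyaluronan receptor known from lymphatic endothelium and perivascular macrophages, Msr1 the class A scavenger receptor SR-A, Cd36 the class B receptor for fatty acids and oxidized lipoproteins, and Marco a collagen-like class A receptor for bacteria and particles. In the healthy brain, the mannose receptor, CD163 and LYVE1 are textbook markers of border-associated macrophages, which line vessels, meninges and choroid plexus, while the microglia of the parenchyma are marked by genes such as P2ry12 and Tmem119. Both depend on the receptor CSF1R, which the drug PLX5622 inhibits.

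Brain cells sorted for CD11b, a surface protein of myeloid cells, were profiled with 10x Genomics single-cell RNA-seq in 3 conditions. Ctrl mice were untreated, D0 mice had eaten PLX5622 diet (1200 mg/kg) for 14 days, and D2 mice had returned to control diet for 2 days after the same 14 days. All were female C57BL/6 mice (C57BL/6J in the study's methods), 5 months old, and were perfused before the brain, without its cerebellum, was dissociated. Each Ctrl library held 1 brain, and each D0 or D2 library pooled 2 brains, so the spread between D0 or D2 libraries is one between pools. There were 3 libraries per condition. The third D2 library (D2-3), which the study left out of its analysis, is given only as an alternative: 531 of its 1808 cells were monocyte-like, against 37 and 69 cells in the other D2 libraries. The remaining 8 libraries kept 2418 to 4980 cells each after the filters of the study, at a median of 4810 to 9243 unique molecular identifiers (UMIs, each the tag of 1 captured transcript) per cell. The limit of 20000 UMIs per cell removed 1.13% to 24.2% of their barcodes, and pairs of libraries shared 0 to 7 barcodes.

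Cells were assigned to classes by clusters drawn without the 7 receptors and named from marker genes that exclude them. Levels are given in CPM, the UMIs of a gene scaled by the usual factor to an equal total of UMIs for each class and library, and since the assay tags transcripts at one end, they were not scaled to gene length. In Ctrl, the border-associated macrophage-like class held 183, 70 and 179 cells and the microglia-like class 3359, 2142 and 3234. The macrophage-like class fitted its name only in part. All 11 of its markers had UMIs in every Ctrl library and summed to 2725 to 3702 CPM, against 27.7 to 29.5 CPM in microglia-like cells, but 11 microglia markers summed to 10599, 15624 and 17813 CPM in it, against 25469 to 30284 CPM in microglia-like cells. Of its Ctrl cells with 2000 or more UMIs, 46.7%, 46.0% and 53.5% had UMIs of at least 3 of the 11 markers once each cell was thinned to 2000 UMIs. After PLX5622 the class was small, with 75, 10 and 8 cells in D0 and 14 and 20 in D2. In the first D0 library, D0-1, only 4 of 67 cells met the marker criterion, the markers Cd209f and Ccl24 had no UMI, and Ms4a7 alone gave 872 of the summed 1119 CPM. The dendritic cell-like class fitted its name only in part too. Against the other clusters it had 7 dendritic cell markers raised, but also 5 of monocytes, 4 of neutrophils and 2 of border-associated macrophages.

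All 7 genes are protein-coding. On GRCm38 they lie at chr2:14229392-14332057 (Mrc1, plus strand), chr6:124304656-124330527 (Cd163, plus), chr14:31139013-31168641 (Stab1, minus), chr7:110850607-110863239 (Lyve1, minus), chr8:39581685-39642673 (Msr1, minus), chr5:17781690-17888801 (Cd36, minus) and chr1:120474538-120505024 (Marco, minus). The 3 promoter sequences below are shown because these genes carried most of the receptor UMIs of macrophage-like cells, and Stab1 also most of those of microglia-like cells. They are the 250 bases before the RefSeq start, 5′ to 3′ on the strand of the gene, from RefSeq on GRCm38.p6. The first 20 bases after the window were found in 1 transcript of Mrc1 and 1 of Stab1, but in 0 of Cd163. The Mrc1 window ends at 14229413, inside the gene span given above. Capitals mark AGGAAG, the core to which the myeloid factor PU.1 binds (read CTTCCT on the opposite strand), and TGCTGA, the half-site of MAF factors. TGANTCA, the AP-1 site, was searched too, and each motif was searched on both strands. Of 32851 promoters of the same length, 29.5% held AGGAAG, 16.1% TGCTGA and 6.75% TGANTCA, so a match is a description of these letters only.

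Mrc1, chr2:14229164-14229413, plus strand: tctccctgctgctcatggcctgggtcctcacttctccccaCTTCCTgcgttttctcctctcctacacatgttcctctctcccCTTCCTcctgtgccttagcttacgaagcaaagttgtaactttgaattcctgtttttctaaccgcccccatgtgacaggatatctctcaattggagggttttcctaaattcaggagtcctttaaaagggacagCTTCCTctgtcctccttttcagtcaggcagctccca
Cd163, chr6:124304401-124304650, plus strand: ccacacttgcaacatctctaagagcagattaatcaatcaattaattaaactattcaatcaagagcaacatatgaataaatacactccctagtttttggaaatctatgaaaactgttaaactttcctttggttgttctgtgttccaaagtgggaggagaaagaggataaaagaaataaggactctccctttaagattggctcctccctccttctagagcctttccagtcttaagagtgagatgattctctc
Stab1, chr14:31168642-31168891, minus strand: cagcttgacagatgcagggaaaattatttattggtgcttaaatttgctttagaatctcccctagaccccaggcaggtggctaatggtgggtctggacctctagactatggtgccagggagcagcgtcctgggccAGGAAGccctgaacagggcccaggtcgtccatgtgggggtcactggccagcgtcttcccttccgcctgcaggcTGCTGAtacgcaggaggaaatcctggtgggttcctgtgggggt

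The Mrc1 window held 3 AGGAAG matches, all on the strand opposite to the gene, which begin 210, 168 and 36 bases before the start. The Stab1 window held 1 AGGAAG and 1 TGCTGA, and the Cd163 window no match to any of the 3 motifs. The windows differed in base composition, with 49.6% G and C in Mrc1, 36.8% in Cd163 and 57.2% in Stab1.

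The receptors were read at very different depths. Over the 8 libraries, Stab1 gave 30331 UMIs in 14313 cells, Mrc1 5637 in 1578, Cd36 2093 in 1041, Msr1 695 in 529, Cd163 568 in 250 and Lyve1 283 in 107. Marco gave 26 UMIs in 9 cells, which allows no comparison. Stab1 thus had the most UMIs, and its level could be followed per library in macrophage-like and microglia-like cells. In libraries with 20 or more cells of the class, it had 1 to 33 UMIs in monocyte-like and 3 to 20 in dendritic cell-like cells. These values, and those of Lyve1 and Cd163 outside macrophage-like cells, rest on few molecules.

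In Ctrl, macrophage-like cells had the highest levels of Mrc1, Cd163, Stab1 and Lyve1 of the named classes. Mrc1 was at 1054, 669.9 and 947 CPM in the 3 Ctrl libraries (890.0 ± 198 CPM, SD, n = 3). Stab1 was at 488, 531 and 756 CPM (592 ± 144), Cd163 at 111, 45.8 and 131 CPM (95.8 ± 44.5), and Lyve1 at 69.8, 36.3 and 62.4 CPM (56.2 ± 17.6). The second Ctrl library was lowest for Mrc1, Cd163 and Lyve1 but not for Stab1. Cd36 stood at 100.05, 58.5 and 115 CPM (91.2 ± 29.4) and Msr1 at 63.1, 22.1 and 36.3 CPM (40.5 ± 20.8), while Marco had no UMI, a floor of 3 counts being 2.01 CPM in the first of these libraries. With each cell thinned to 2000 UMIs, 59.1 ± 3.94% of Ctrl macrophage-like cells had an Mrc1 UMI and 54.4 ± 8.42% a Stab1 UMI (n = 3), against 16.4% for Cd36, 15.1% for Cd163, 8.37% for Msr1 and 7.94% for Lyve1. At the same depth, of 128 Ctrl neutrophil-like cells, which should lack most of these receptors, 8 had a Stab1 UMI and at most 1 a UMI of any other. Unthinned, 80.6% and 80.5% of macrophage-like cells had an Mrc1 or Stab1 UMI.

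The other classes each had their own set. Dendritic cell-like cells carried Mrc1 at 184, 185 and 117 CPM and Cd163 at 14.6 to 19.1 CPM in Ctrl (14 to 25 cells a library), with Lyve1 at 0. Monocyte-like cells had the highest Cd36 level of the Ctrl classes, 212 and 353 CPM in the 2 Ctrl libraries with 20 or more such cells and 46.5 CPM in the third, which had 11, and Msr1 at 34.3 to 58.1 CPM. The Ctrl levels of Msr1 in monocyte-like and macrophage-like cells overlapped and do not differ beyond their spread. Microglia-like cells carried Stab1 at 196.2 to 234 CPM, below every Ctrl macrophage-like library, and little of the rest: Mrc1 5.26 to 5.90, Msr1 1.18 to 2.34, Cd36 0.266 to 0.488 and Cd163 0.266 to 0.637 CPM. For Stab1, the Ctrl order of the myeloid classes, neutrophil-like cells aside, was macrophage-like, microglia-like, then monocyte-like (33.9 to 81.5 CPM) and dendritic cell-like cells (9.54 to 39.1 CPM), of which the last 2 overlapped. Neutrophil-like cells had Stab1 at 113 and 69.5 CPM in the 2 Ctrl libraries with 20 or more such cells and no UMI in the 15 cells of the third, a range that overlaps both. Because clusters were drawn from the same cells, these differences between classes were not tested.

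**Figure D1:**
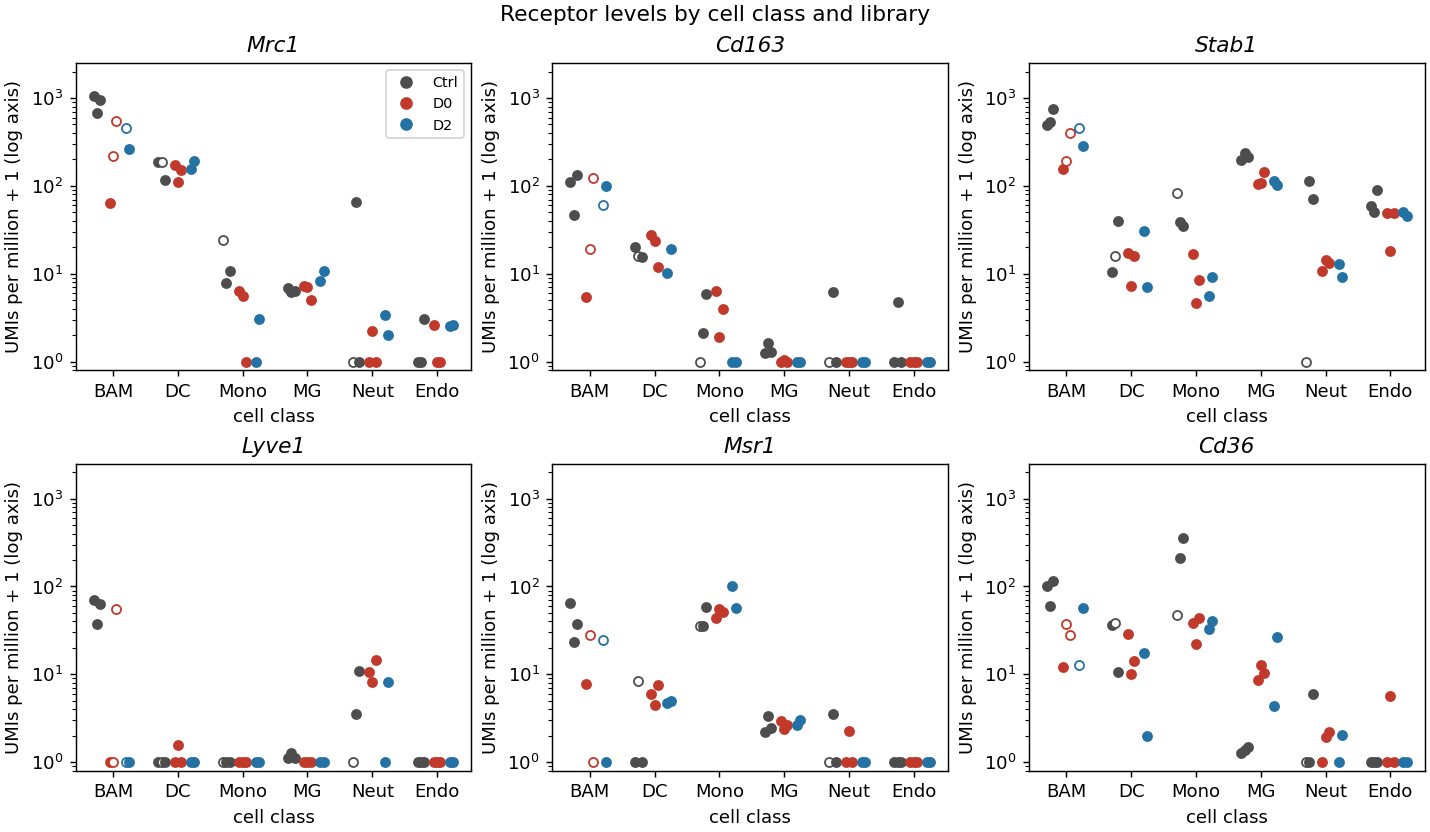
CPM plus 1 (log axis) of 6 receptors in border-associated macrophage-like (BAM), dendritic cell-like (DC), monocyte-like (Mono), microglia-like (MG), neutrophil-like (Neut) and endothelial-like (Endo) cells, with 1 point per library and open circles for libraries with fewer than 20 cells of the class. Mrc1 was at 669.9 to 1054 CPM in Ctrl macrophage-like cells and between 110 and 190 CPM in dendritic cell-like cells under all 3 conditions, and Cd36 in microglia-like cells was near 0 only in Ctrl.

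The patterns most like each receptor, by Pearson's r of log2(CPM + 10) over 52 points (10 classes by library) and among 11077 genes, separated them in the same way. Mrc1 was most like Cd163 (r = 0.92), then the lectin genes Mgl2 (0.84) and Clec10a (0.81). Cd163 was next most like Pla2g2d (0.83) and the macrophage marker Pf4 (0.81), and Lyve1 was most like Cd209g (0.84), Cd209f (0.83) and Folr2 (0.82). Stab1, with its high level in microglia-like cells, was most like Cltc, the clathrin heavy chain (0.89), Pla2g15 (0.87) and Ang (0.87). Msr1 and Cd36 shared F13a1 (0.95 and 0.79) and Smpdl3b (0.83 and 0.80) among their 3 most like genes, with Hpse (0.82) for Msr1 and Pparg (0.79) for Cd36. Between receptors, r was 0.76 for Msr1 and Cd36 and 0.08 for Msr1 and Stab1. The points of 1 library share its depth and free RNA, so these values are a description.

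Lyve1 marked a part of the Ctrl macrophage-like cells. It was detected in 25, 7 and 27 of them, and these cells had little of the MHC class II genes that present antigen: H2-Aa, H2-Ab1, H2-Eb1 and Cd74 summed to 3018, 76.0 and 266 CPM, against 29629, 26181 and 17579 CPM in the 158, 63 and 152 cells without a Lyve1 UMI. Mrc1 went the other way, at 3266, 1352 and 1750 CPM with a Lyve1 UMI and 754, 591 and 738 CPM without. Stab1 was at 1250, 1124 and 1274 CPM with and 385, 462 and 622 CPM without, and Cd163 at 372, 122 and 266 CPM against 75.5, 37.0 and 95.8 CPM. In each of the 3 libraries the 2 sets of cells were thus apart in the same direction for all 4 measures. Cells without a Lyve1 UMI also include the less certain members of the class, so the split was repeated among cells with 3 or more other macrophage markers. There MHC class II stood at 3368, 39.3 and 310 CPM with a Lyve1 UMI (18, 5 and 23 cells) and 13501, 25104 and 8127 CPM without (52, 24 and 54 cells). Mrc1 was at 3611, 1669 and 2028 CPM against 1447, 1080 and 1275 CPM. The split was made after its values were seen, and median UMIs per cell differed in both directions between the sets (6678, 10194 and 13279 with, 8184, 8299 and 7048 without).

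**Figure D2:**
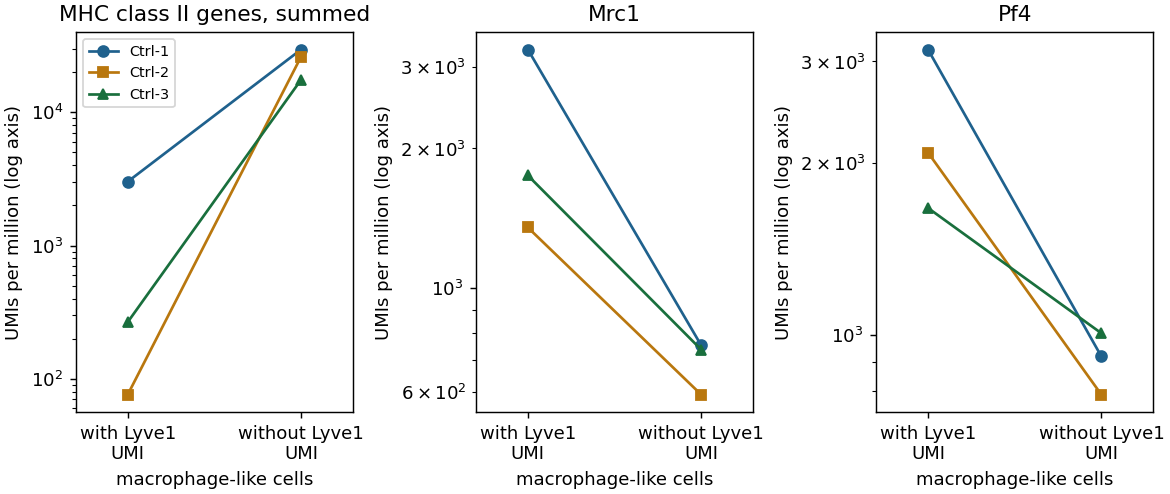
Summed level of 4 MHC class II genes, and levels of Mrc1 and Pf4, in CPM (log axes), in macrophage-like cells of the 3 Ctrl libraries with and without a Lyve1 UMI; each line joins the 2 sets of cells of 1 library. MHC class II was lower, and Mrc1 and Pf4 higher, in the cells with a Lyve1 UMI in each library.

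When the UMIs of all cells were counted, the class that held each receptor changed after PLX5622. Macrophage-like cells held 86.0% of the 3921 Mrc1 UMIs in Ctrl, 8.49% of 1084 in D0 and 12.7% of 632 in D2. In D0, dendritic cell-like cells held 49.2% of the Mrc1 UMIs and microglia-like cells 38.5%. Cd163 moved likewise, from 90.0% in macrophage-like cells in Ctrl (428 UMIs) to 78.9% in dendritic cell-like cells in D0 (95 UMIs). Cd36 was held by macrophage-like (53.0%) and monocyte-like cells (39.4%) in Ctrl and by microglia-like cells in D0 (75.6%) and D2 (85.3%). The 3 Ctrl libraries differed widely, at 55.6 ± 36.3% (SD) and 36.4 ± 38.9% for these 2 classes. Ctrl-2 gave 186 of the 263 monocyte-like Cd36 UMIs. Stab1 stayed with microglia-like cells at 84.5%, 93.6% and 92.3%. Lyve1 was in macrophage-like cells in Ctrl (93.6% of 233 UMIs), whereas in D0 neutrophil-like cells held 88.1% of the 42 UMIs that were left. Dendritic cell-like cells were 0.566 ± 0.0217% of all cells in Ctrl and 3.32 ± 1.05% in D0 (exact permutation p = 0.1, the smallest that 3 libraries against 3 allow). Such a share cannot tell more of these cells from fewer of the others.

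**Figure D3:**
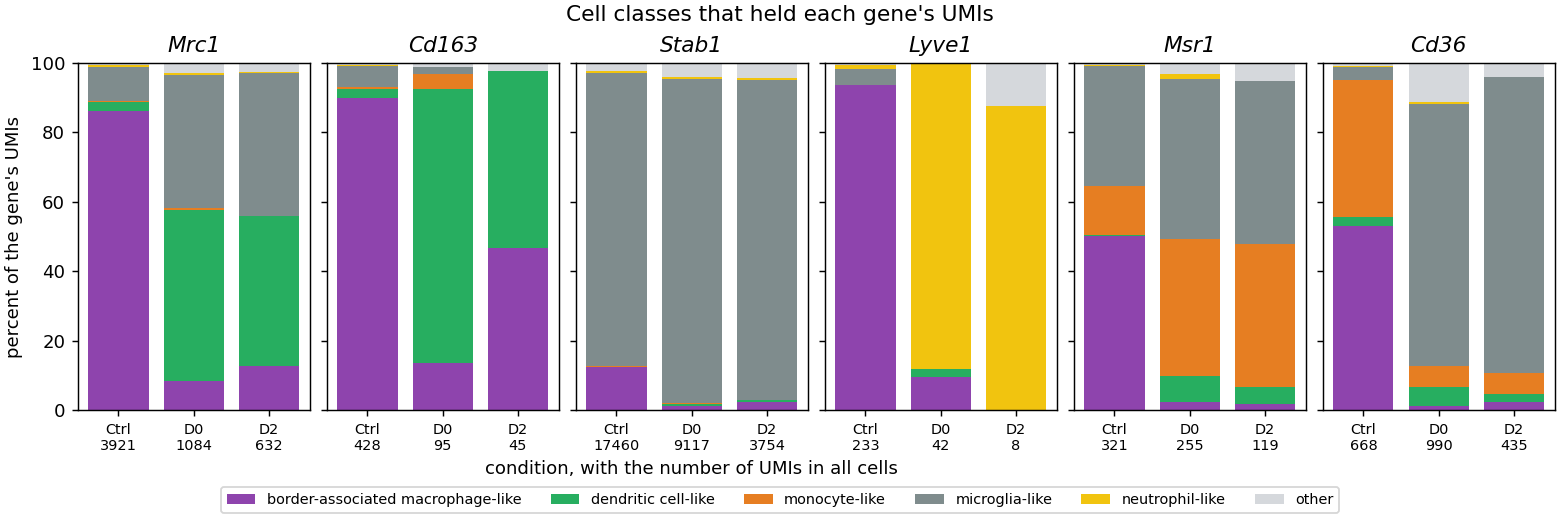
Percent of the UMIs of each of 6 receptors that each cell class held, pooled over the libraries of a condition, with the number of UMIs under each bar. The macrophage-like part of Mrc1 and Cd163 was 86.0% and 90.0% in Ctrl and 8.49% and 13.7% in D0, and the microglia-like part of Cd36 was 3.89% in Ctrl and 75.6% in D0.

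The first comparison summed the kept myeloid cells of each library, before their classes were told apart. Neutrophil-like, lymphoid-like, endothelial-like and the other remaining classes of the sort were not in this sum. Mrc1 was at 61.3, 26.8 and 57.7 CPM in Ctrl, 13.5, 11.2 and 15.1 in D0 and 12.5 and 25.0 in D2, with no overlap between Ctrl and either group. Cd163 was at 6.06, 2.12 and 7.57 CPM in Ctrl, 1.13, 1.08 and 1.18 in D0 and 0.516 and 2.36 in D2, so that D2 overlapped Ctrl. Lyve1 fell from 3.64, 1.35 and 3.52 CPM to 0, 0.0246 and 0.181 in D0 and to 0 in both D2 libraries. Pooled, 229 Lyve1 UMIs in Ctrl stood against 5 in D0, a 50.1-fold lower level, and 0 in D2, at least 35.5-fold lower when D2 is set at 3 counts over its 2 libraries. Over all cells of the sort, Lyve1 had 233 UMIs in Ctrl, 42 in D0 and 8 in D2, of which neutrophil-like cells held 3, 37 and 7. Stab1 was at 208, 233 and 238 CPM in Ctrl, 99.6, 98.1 and 129 in D0 and 110.1 and 91.9 in D2, and no treated library reached the lowest Ctrl library.

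For 12832 genes, edgeR's quasi-likelihood test was run on the UMI sums. Of these genes, 20.3% were called in D0 against Ctrl at an adjusted p under 0.05, 8.19% lower and 12.1% higher, and 17.6% in D2, 7.65% lower and 9.9% higher. Of the 6 receptors tested, 4 were called lower in D0: Mrc1 (log2 fold change -1.67, SE 0.34, edgeR adjusted p = 0.0103), Cd163 (-2.02, SE 0.56, adjusted p = 0.0348), Lyve1 (-5.22, SE 0.78, adjusted p = 0.00334) and Stab1 (-0.86, SE 0.14, adjusted p = 0.00417). In D2, Lyve1 (adjusted p = 0.00572) and Stab1 (-1.06, SE 0.16, adjusted p = 0.00305) were called lower, while Mrc1 at -1.25 (adjusted p = 0.0538) and Cd163 at -1.81 (adjusted p = 0.0916) were not. Cd36 (0.52 in D0 and 0.75 in D2) and Msr1 (-0.28 and -0.16) did not pass the test in either comparison (adjusted p from 0.412 to 0.702), and Marco was below the filter on low counts. The Cd36 value of D2 rested on single libraries, at 1.59 without D2-1 (adjusted p = 0.0308) and -1.09 without D2-2, and Msr1 turned to 0.14 without D2-1. Both comparisons share the Ctrl libraries. D2 was not told apart from D0 for any receptor: 0 genes were called between them with edgeR, 756 had an unadjusted p under 0.05, and DESeq2 called 29 genes, none of them a receptor.

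In D2, Mrc1 and Cd163 were called without Ctrl-2 (adjusted p = 0.0153 and 0.0411), Cd163 also without D2-2 (adjusted p = 0.0497), and both by DESeq2. The D0 call of Cd163 was lost when any 1 of the libraries Ctrl-1, Ctrl-3, D0-1, D0-2 or D0-3 was left out (adjusted p up to 0.122), and that of Mrc1 without D0-2 (adjusted p = 0.0508). With the Cell Ranger version of the file header as a term, or with D2-3 in the fit, only Lyve1 and Mrc1 were called in D0, Stab1 having an adjusted p of 0.0532 and 0.218. The version was 3.1.0 in 2 Ctrl libraries and 3.0.2 in all D0 libraries and both D2 libraries used, so that it can be separated from treatment only through Ctrl-1. The TMM scaling of edgeR lifted D0 values: the median of all genes was -0.06 with it and -0.26 with scaling to total UMIs only, under which Stab1 was at -1.06 and Mrc1 at -1.88 in D0. In D2 the median was -0.02 with TMM and -0.13 with totals only.

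A lower level over kept myeloid cells can come from fewer cells that carry a receptor or from less of it per cell. For the macrophage receptors the data bear on both. The share of macrophage-like cells among kept myeloid cells was 4.42%, 2.91% and 5.07% in Ctrl, 2.00%, 0.232% and 0.386% in D0 and 0.392% and 0.985% in D2. The groups did not overlap (4.13 ± 1.11% in Ctrl against 0.873 ± 0.98% in D0, exact permutation p = 0.1, and 0.688 ± 0.42% in D2, exact permutation p = 0.2, each the smallest p possible). Cells that had UMIs of 3 or more of the 11 other macrophage markers, counted in cells thinned to 2000 UMIs, were 1.90 ± 0.516% of the Ctrl myeloid cells, 0.141 ± 0.101% of those in D0 and 0.171 ± 0.00737% of those in D2, in means a 13.5-fold and an 11.1-fold lower share (exact permutation p = 0.1 and 0.2, again the smallest possible). The clustering planned for this share also left out genes called between conditions. In it, macrophage-like and dendritic cell-like cells fell into 1 cluster (500 and 603 cells of the 2 classes). Its share was 4.44 ± 0.561% in Ctrl, 5.16 ± 0.846% in D0 (exact permutation p = 0.5) and 4.26 ± 2.75% in D2 (exact permutation p = 1). That cluster no longer stood for macrophages alone. The share by markers depends on marker levels per cell as well, and Pf4 and Cd209f were lower and Ms4a7 higher in treated macrophage-like cells. All of these are shares of sorted cells, and numbers of cells per brain are not in the files.

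Within the few macrophage-like cells that were left, Mrc1 and Stab1 levels were below Ctrl, while the markers that gave the class its name went both ways. Mrc1 was at 62.3, 217 and 544 CPM in D0 and 450.0 and 261 CPM in D2, all below the lowest Ctrl library, and Stab1 at 153, 190.2 and 394 CPM and 450.0 and 285 CPM, likewise all below Ctrl. Cd163 in D0-3 (122 CPM) and in both D2 libraries (59.2 and 99.3 CPM) was inside the Ctrl range. Of the markers, Pf4 was at 923 to 1184 CPM in Ctrl, 51.2, 145 and 612 CPM in D0 and 94.7 and 199 CPM in D2, and Cd209f at 148 to 229 CPM in Ctrl, 0, 9.06 and 68.0 CPM in D0 and 23.7 and 0 CPM in D2. Both were lower in every treated library than in every Ctrl library, as was Ccl24 (65.8 to 95.3 CPM in Ctrl, at most 35.5 CPM after treatment). Ms4a7, at 544 to 679 CPM in Ctrl, was higher in every treated library, at 761 to 1812 CPM. Ccl8, at 51.7 to 141 CPM in Ctrl, was at 42.3, 525 and 245 CPM in D0 and 414 and 143 CPM in D2. F13a1, Cbr2, Dab2, Folr2, Clec10a and Ednrb were each within or above the Ctrl range in some treated library. The marker criterion was met by 4 of 67, 2 of 9 and 4 of 8 cells of the class in D0 and by 4 of 13 and 3 of 19 in D2, so lower receptor levels cannot be told apart from a class made up of other cells.

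Only D0-1 and D2-2 had 20 cells of the class, so the planned test set 1 library of each group against the 3 Ctrl libraries, and took the lone library to vary like the Ctrl libraries. By edgeR over 7836 genes, 9.28% were called in D0 (4.54% lower and 4.73% higher) and 2.04% in D2 (0.651% and 1.39%). In D0 these included Mrc1 (log2 fold change -3.73, SE 0.38, adjusted p = 6.3e-05), Cd163 (-4.32, SE 0.84, adjusted p = 0.00611), Lyve1 (adjusted p = 0.00171), Stab1 (-1.84, SE 0.34, adjusted p = 0.00444) and Cd36 (-2.94, SE 0.56, adjusted p = 0.00562), all lower, but not Msr1 (adjusted p = 0.0729). In D2 only Mrc1 was called (-1.75, SE 0.35, adjusted p = 0.0194), while Stab1 stood at -1.04 (adjusted p = 0.192). Between D2 and D0, 0.0383% of genes were called (0.0255% higher and 0.0128% lower), none of them a receptor. Among libraries with 10 or more cells (D0-1, D0-2, both D2 and the 3 Ctrl), edgeR over 6363 genes called 1.7% of genes in D0, 0.959% higher and 0.739% lower, among them Lyve1, Mrc1 (log2 fold change -2.64, SE 0.52, adjusted p = 0.0354), Cd163 (-3.53, SE 0.74, adjusted p = 0.0424) and Stab1 (-1.62, SE 0.35, adjusted p = 0.0451). Cd36 (-2.27, adjusted p = 0.0757) and Msr1 (-1.74, adjusted p = 0.313) were not called, and in D2 no gene was (631 with an unadjusted p under 0.05), Mrc1 being at -1.36 (adjusted p = 0.377). The D2 call of Mrc1 was lost without the upper limit on UMIs as well. Of the D0 cells in the fit with 10 or more, 75 of 85 came from D0-1, where few met the marker criterion.

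A further view of the level per cell came from the cells with 3 or more other macrophage markers, 183 in Ctrl, 11 in D0 and 8 in D2. As the markers Pf4 and Cd209f were lower in treated cells of the class, this criterion may keep only those with more marker UMIs. Mrc1 was at 1627 CPM in the Ctrl cells (95% Poisson interval 1565 to 1690, which covers counting error only), 853 CPM (665 to 1077) in D0 and 811 CPM (610 to 1059) in D2. Stab1 was at 999 CPM (951 to 1050) in Ctrl, 731 CPM (558 to 941) in D0 and 766 CPM (571 to 1008) in D2. Cd163 did not go the same way, at 203 CPM (182 to 227), 146 CPM (75.5 to 255) and 286 CPM (172 to 446). Lyve1 was at 126 CPM in Ctrl, in 46 of 183 cells, and in D0 at 48.7 CPM from 4 UMIs in a single cell, with none in D2, where a count of 0 allows up to 45.1 CPM. Of the 19 treated cells, 17 had an Mrc1 UMI and 15 a Stab1 UMI. So few cells from 5 libraries give no test over libraries.

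**Figure D4:**
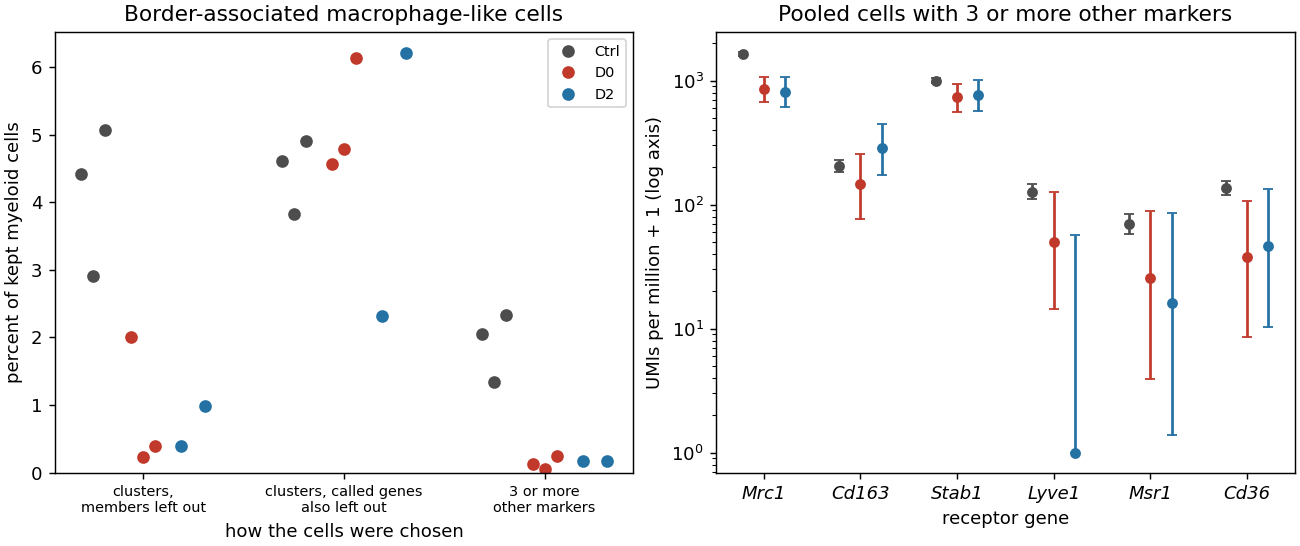
Left, macrophage-like cells as a percent of kept myeloid cells, 1 point per library, for 3 ways of choosing them; the cluster drawn without called genes also holds dendritic cell-like cells. Right, receptor levels (CPM plus 1, log axis) in pooled cells with 3 or more other macrophage markers, with 95% Poisson intervals: by the marker criterion the mean share was 13.5-fold lower in D0 than in Ctrl, while Mrc1 in such cells was at 853 against 1627 CPM.

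The level that a changed mix of classes alone, or changed levels alone, would give was computed by holding the other side fixed. Such sums do not divide a fall between mix and level. Pooled over kept myeloid cells, Mrc1 stood at 50.7 CPM in Ctrl and 12.8 CPM in D0. With the Ctrl level of every class and the class shares of D0 it would be 20.2 CPM, and with the D0 levels and the Ctrl shares 13.3 CPM. The D0 levels of the macrophage-like class rest mostly on D0-1, where 4 of 67 cells met the marker criterion, so the second sum holds a change in the cells of the class as well as in their level. For D2 (17.6 CPM) the same sums gave 19.0 and 24.4 CPM. Cd163, at 5.52 CPM in Ctrl and 1.12 CPM in D0, gave 1.96 and 1.18 CPM. In D2 (1.26 CPM) it gave 1.83 and 4.13 CPM. The macrophage-like class of D2 held 21 Cd163 UMIs, and 4 of 13 and 3 of 19 of its cells met the marker criterion. Stab1, which went from 225 to 107 CPM in D0, would be 201 CPM from the mix alone and 115 CPM from the levels alone, and in D2 (103 CPM) 202 and 117 CPM. Macrophage-like cells held 4.66% of the myeloid UMIs in Ctrl, 0.754% in D0 and 0.687% in D2.

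In microglia-like cells, Stab1 was lower after PLX5622 and stayed lower in D2. It was at 196.2, 234 and 211 CPM in Ctrl (214 ± 19.0), 104, 107 and 142 CPM in D0 (118 ± 21.1) and 114 and 102 CPM in D2 (108 ± 8.56), and the treated libraries did not overlap Ctrl. With cells thinned to 2000 UMIs, 34.3 ± 2.16% of Ctrl, 22.6 ± 3.76% of D0 and 20.6 ± 0.524% of D2 cells had a Stab1 UMI. Neutrophil-like cells, whose Stab1 UMIs can come from free RNA, had one in 6.88% of Ctrl and 1.51% of D0 cells at the same depth. In the edgeR fit over 12400 genes of microglia-like cells, where 19.7% were called in D0 (7.4% lower and 12.3% higher) and 18.6% in D2 (7.73% and 10.8%), Stab1 was called lower in D0 (log2 fold change -0.66, SE 0.15, adjusted p = 0.0150) and in D2 (-0.89, SE 0.17, adjusted p = 0.00695). The D0 call was lost without Ctrl-2 (adjusted p = 0.0609), Ctrl-3 (0.0522) or D0-2 (0.0685), with dividing clusters left out (-0.52, adjusted p = 0.0706) and with Cell Ranger version as a term (-0.46, adjusted p = 0.146). The D2 call was lost without D2-2 (adjusted p = 0.0673) and with the version term (-0.69, adjusted p = 0.0711).

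Markers of microglia were lower in these cells too. The 11 microglia markers summed to 25469 to 30284 CPM in Ctrl, 18398 to 21114 CPM in D0 and 15542 to 16836 CPM in D2, and the part of this in the Stab1 values was not tested. Across microglia-like clusters, the mean Stab1 level ran from 234 ± 29.3 CPM in cluster 2, led by Bank1, Sox4 and P2ry13, to 52.6 ± 11.2 CPM in the dividing cluster 8, led by Top2a and Mki67. Cluster 8 reached 20 cells in D0 and D2 libraries only. In all 10 microglia-like clusters with libraries of both conditions, the D0 mean lay below the Ctrl mean. It was 185 against 187 CPM in cluster 5 (1 Ctrl library), 216 against 241 CPM in cluster 2 and 115 against 167 CPM in cluster 11. In cluster 2 the single D2 library with 20 cells stood at 264 CPM, above the Ctrl mean.

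Cd36 moved the other way. Microglia-like cells of the Ctrl libraries had 0.266, 0.372 and 0.488 CPM, 26 UMIs in all, while those of D0 had 7.65, 11.8 and 9.24 CPM (748 UMIs) and those of D2 3.35 and 25.3 CPM (371 UMIs). Every treated library lay above every Ctrl library, and the D2 libraries lay apart from each other. The log2 fold change was 4.88 in D0 (SE 0.75, edgeR adjusted p = 0.00194) and 5.34 in D2 (SE 0.79, adjusted p = 0.00157), and D2 was not told apart from D0 (adjusted p from 0.70 to 0.98 over the receptors tested). With D2-3 in the fit, where Cd36 reached 155 CPM, the D0 change was 4.89 and no longer called (adjusted p = 0.0790), and Stab1 in D0 (-0.64, adjusted p = 0.256) was not either. In D0, neutrophil-like cells had Cd36 at 0, 0.943 and 1.22 CPM and endothelial-like cells at 0, 4.70 and 0 CPM. Both were below the microglia-like cells of the same libraries. Ependymal-like cells of D0-3 had 15.4 CPM from 4 UMIs, above the 9.24 CPM of its microglia-like cells. Mural-like cells reached 13.7 CPM in D0, from 3 UMIs. The part of free RNA in the Cd36 values was not tested. Of the D0 Cd36 UMIs in microglia-like cells, 66.0% were in cells with 2 or more, and 1 cell held 9.

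**Figure D5:**
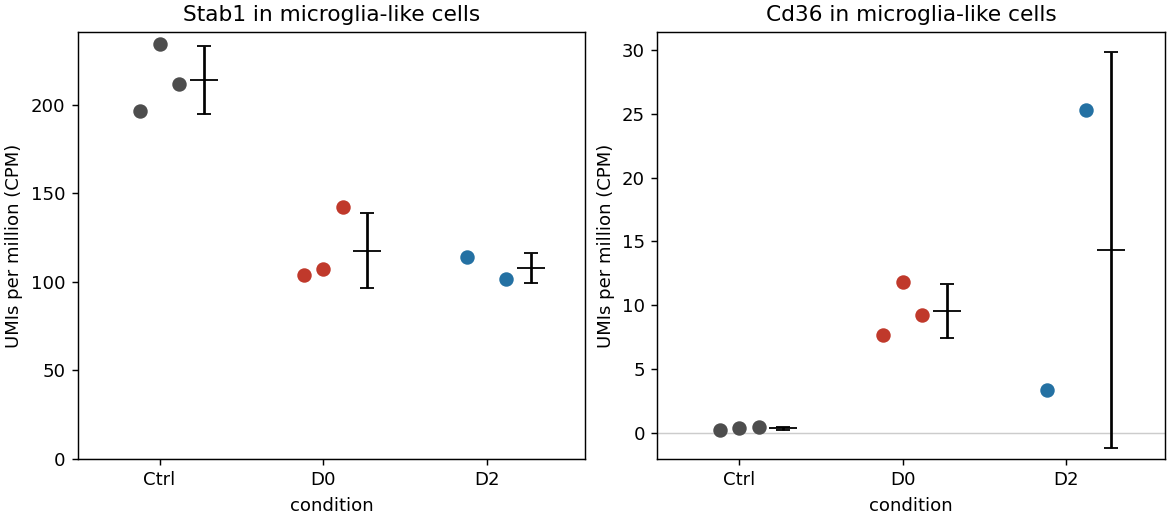
Levels of Stab1 and Cd36 (CPM) in microglia-like cells, with 1 point per library and the mean ± SD of each condition beside the points. Stab1 was at 196.2 to 234 CPM in Ctrl and 102 to 142 CPM in D0 and D2; Cd36 was under 0.5 CPM in Ctrl and between 3.35 and 25.3 CPM in the treated libraries.

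Few cells carried it. A Cd36 UMI was found in 2.98%, 6.46% and 5.09% of microglia-like cells in D0, 1.90% and 9.15% in D2 and 0.179% to 0.278% in Ctrl, and at 2000 UMIs per cell in 1.12 ± 0.414%, 1.40 ± 1.42% and 0.0579 ± 0.0329%. In all 5 treated libraries, cells with a Cd36 UMI had more of Lpl, which encodes lipoprotein lipase (117 to 253 CPM against 41.1 to 66.8 without), of the growth factor gene Igf1 (15.5 to 171 against 2.59 to 25.6 CPM) and of Arg1, which encodes arginase (4.97 to 86.1 against 0.210 to 5.18 CPM). They had less P2ry12 (279 to 555 against 580 to 1401 CPM) and less Stab1 (43.1 to 74.7 against 107 to 147 CPM). In each library both values were read on the same scale, but the cells with a Cd36 UMI were deeper, with median UMIs of 9844 to 15437 against 5290 to 10178, and these genes were named after their values were seen. Among the microglia-like clusters, D0 levels were 21.7 ± 6.42 CPM in the dividing cluster 8 and 47.1, 16.4 and 6.71 CPM in cluster 11, led by Ccl12 and Nes, where 56 cells of D0-1 gave the high value. The D0 mean lay below the Ctrl mean in clusters 1 (2.68 against 4.06 CPM), 9 (13.6 against 15.7 CPM), 6 and 10. It lay above the Ctrl mean in clusters 2, 3, 4, 5, 11 and 12, with 7.75 against 0.463 CPM in cluster 12 and 4.47 against 4.01 CPM in cluster 5. The part of the mix of clusters in the rise was not tested. An unnamed cluster of shallow cells had 27.1 ± 12.1 CPM.

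Markers of monocytes and neutrophils in the microglia-like cells were higher together with Cd36, and those of macrophages in D2 alone. The 11 monocyte markers summed to 10.1 to 12.5 CPM in Ctrl, 18.8 to 27.8 CPM in D0 and 29.8 to 42.4 CPM in D2, with Chil3 or Ace at 0 in 4 of the 8 libraries. The 10 neutrophil markers summed to 7.08 to 19.5, 59.7 to 209 and 53.9 to 206 CPM, and the 11 macrophage markers to 27.7 to 29.5, 26.8 to 37.9 and 54.1 to 63.2 CPM, with D0 overlapping Ctrl and Cd209f at 0 in every treated library. Their part in the rise of Cd36 was not tested. Monocyte-like cells themselves had less Cd36 after treatment, 37.1, 21.0 and 43.0 CPM in D0 and 31.9 and 39.5 CPM in D2.

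Mrc1 in microglia-like cells was low and did not pass the test: 5.90, 5.26 and 5.37 CPM in Ctrl, 6.34, 6.06 and 4.09 CPM in D0 (log2 fold change 0.21, edgeR adjusted p = 0.523) and 7.22 and 9.78 CPM in D2 (0.73, adjusted p = 0.0590). The D2 difference was called by DESeq2 (adjusted p = 0.0332) and without D0-3 (0.0337), and stood at 0.47 without D2-2. Without the limit of 20000 UMIs per cell the sign turned, to -1.50 in D0 (adjusted p = 0.0295) and -1.03 in D2 (adjusted p = 0.161). Of the 282 Ctrl microglia-like cells with an Mrc1 UMI, 23 (8.16%) had 3 or more macrophage markers, against 0.166% of those without. Msr1 stood between 1.18 and 2.34 CPM in all 8 libraries (log2 fold change 0.18 in D0, or -0.01 with scaling to total UMIs only, adjusted p = 0.720, and 0.23 in D2, adjusted p = 0.710). Cd163 and Lyve1 were below the filter, with 26 and 11 UMIs in Ctrl, 2 and 0 in D0 and 0 and 0 in D2, and 11 of the 23 Ctrl cells with a Cd163 UMI had 3 or more macrophage markers. Cd163 passed the filter when either D2 library was left out, but only through Ctrl, which held nearly all its UMIs. The direction of a difference there was thus fixed by the filter and is not read as a result. Marco had 2 UMIs in Ctrl, 19 in 6 cells in D0, 10 of them in 1 cell, and none in D2.

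In dendritic cell-like cells, a class that fitted its name only in part, the Mrc1 level stayed. Mrc1 was at 170.0, 110.4 and 152 CPM in D0 (144 ± 30.6) and 155 and 189.7 CPM in D2, ranges that overlap the Ctrl values of 117 to 185 CPM, and Cd163 was at 11.1 to 26.4 CPM in D0 and 9.22 to 18.1 CPM in D2. There were 60 of these cells in the 3 Ctrl libraries and 380 in D0, where they held 533 of the 1084 Mrc1 UMIs. Captured cells do not give numbers of cells per brain. Msr1 in monocyte-like cells was at 42.4, 53.9 and 50.4 CPM in D0 and 100.2 and 56.1 CPM in D2, again over the Ctrl range or within it. Stab1 was lower in monocyte-like cells of all treated libraries (3.66 to 15.9 CPM) than in Ctrl (33.9 to 81.5 CPM). Neutrophil-like cells, the reference for free RNA, had more Stab1 than monocyte-like cells in the 2 Ctrl libraries with 20 of each (69.5 and 113 CPM) and were likewise lower in D0 (9.64 to 13.2 CPM) and D2 (8.18 to 11.9 CPM). The part of free RNA in the monocyte-like values was not tested. The monocyte-like class had 11 to 130 cells a library, the dendritic cell-like class 14 to 181 and the neutrophil-like class 15 to 518. These classes were described and not tested.

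Lyve1 UMIs outside macrophages were found in neutrophil-like cells. In D0, 2 of 103, 17 of 518 and 7 of 174 such cells had one (37 UMIs in all, up to 4 in 1 cell), in D2 0 of 86 and 7 of 159, and in Ctrl 0 of 15, 1 of 87 and 2 of 33. All of these cells had at least 3 neutrophil markers. Of the 26 positive cells in D0, 2 had a UMI of a macrophage marker, and the positive cells of D0 held 1 Mrc1 UMI in all, while the single positive cell of Ctrl-2 held 25. Pooled, the level was 8.58 CPM in D0 (95% Poisson interval 6.04 to 11.8), 5.01 CPM in D2 (2.01 to 10.3) and 4.62 CPM in Ctrl (0.953 to 13.5), intervals that overlap. No difference between conditions was detectable at this depth.

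Related genes were read in the same fit of microglia-like cells, as 3 lists of other scavenger receptors, of lectins and further endocytic receptors, and of genes that handle lipid, heme and iron after uptake. Of 16 other scavenger receptors, 8 were tested: in D0, 2 were higher and 1 lower (of all genes, 12.3% higher and 7.4% lower), with a median log2 fold change of 0.04 beside -0.05 for all genes, and in D2 also 2 higher and 1 lower (of all genes, 10.8% and 7.73%, median -0.11 beside -0.03). The higher genes were Olr1 and Cxcl16 in both, and the lower gene was Scarf2 in D0 and Lrp1 in D2. Cxcl16, which encodes a membrane-bound chemokine that also binds oxidized lipoprotein, rose from 83.6 to 223 CPM in D0 (1.62, SE 0.20, edgeR adjusted p = 0.00042) and to 211 CPM in D2 (1.44). Lrp1, a large receptor of lipoproteins and protease complexes, fell from 326 to 214 CPM in D2 (-0.50, adjusted p = 0.0289). Of 20 lectins and other receptors, 10 were tested and 3 were higher in D0 and in D2, none lower, beside 12.3% and 10.8% of all genes higher (medians 0.95 and 0.91, beside -0.05 and -0.03): Folr2 and Lgals3 in both, Clec4e in D0 and Clec4a3 in D2. Lgals3, the galectin MAC2, rose from 4.26 to 34.3 CPM in D0 (3.18, adjusted p = 0.00201) and 66.9 CPM in D2 (4.07), and Clec4a3 from 117 to 217 CPM in D2 (1.00, adjusted p = 0.0432).

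Of the 18 genes of lipid, heme and iron handling, 16 were tested, with 5 higher and 1 lower in D0 and 5 higher and none lower in D2, beside 12.3% and 10.8% of all genes higher (medians 0.28 and 0.53, beside -0.05 and -0.03). Fabp5, a fatty acid carrier, rose from 4.18 to 23.1 CPM in D0 (2.68) and 33.2 CPM in D2 (3.09). Lpl rose from 12.3 to 60.2 CPM (2.50) and 65.7 CPM (2.52), and Plin2, which coats lipid droplets, from 23.4 to 41.1 CPM (1.03) and 59.0 CPM (1.45). Fth1, the ferritin heavy chain, rose from 3889 to 7141 CPM (1.08) and 7178 CPM (0.99), and Npc2, a cholesterol carrier of the lysosome, was the fifth called in each. The iron exporter gene Slc40a1, named after its values were seen, fell from 149 to 79.8 CPM in D0 (-0.69, adjusted p = 0.0316). The edgeR adjusted p of the Fabp5, Lpl, Plin2 and Fth1 changes was between 3.4e-05 and 0.0102 in D0. Olr1, Scarf2, Clec4e and Folr2 were each below 20 CPM in both groups.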

How the data were processed

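Live CD11b+ cells of 9 libraries were read with the 10x Genomics 3′ v3 kit. The authors deposited a matrix of raw UMI counts per gene and cell for each library, made with Cell Ranger on mm10. The submitters' notes give version 3.1.0, but the matrix headers give 3.0.2 except for Ctrl-2, Ctrl-3 and D2-3. Libraries held 2875 to 5721 barcodes and 20257894 to 61230741 UMIs. Replicates are separate mice in Ctrl and pools of 2 brains in D0 and D2, so p-values measure only the spread between these libraries.

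Following the study, barcodes were kept that had between 500 and 20000 UMIs, no fewer than 200 genes and no more than 10% of UMIs from mitochondria. Scrublet called 59 of 30463 cells (0.194%), too few to have worked, so doublets were left in, and the top 4% of scores were left out as an alternative. Cells were clustered without the 7 receptors (scanpy 1.11.5, 3000 variable genes, 10 components, 20 neighbours, Leiden resolution 0.6 with leidenalg 0.10.2), and clusters were named from marker lists. Kept myeloid cells are microglia-like, macrophage-like, dendritic cell-like, monocyte-like and unnamed myeloid cells. UMI counts were summed per library and class and tested with edgeR 4.0.16 (TMM, filterByExpr, quasi-likelihood test, Benjamini-Hochberg over all genes tested, called at an adjusted p under 0.05) in R 4.3.3, in 1 fit of the 3 groups without D2-3. Classes in a library needed 20 cells. DESeq2 1.42.0 was an alternative, as were other scalings, filters, depths, clusterings and library sets. For shares, the exact permutation test was two-sided. Intervals (95%, exact Poisson) and floors (3 counts) cover counting error only.

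All 7 receptors are named wherever tested. From each list, at most 4 called genes a contrast are named, in order of the size of change and only if the higher group reached 20 CPM, and the 3 most like genes of each receptor. The receptors, lists and markers were chosen with earlier results of these data known. The labels name nothing that same-numbered libraries share. In microglia-like cells, deviations from group means correlated at r = 0.41, 0.20 and 0.17 in the 3 same-numbered pairs of Ctrl and D0. In those with D2, r was -0.13 to 0.26. Pairs with unlike numbers reached 0.30 (Ctrl-3 and D0-2) and 0.35 (D0-3 and D2-1). The numbers may pair libraries, but these values do not settle it. With the number as a block no call of a receptor changed. On simulated counts of microglia-like cells for D0 against Ctrl (12400 genes), 69% of genes changed by a log2 fold of 1 and 93% of those changed by 2 were recovered, and 6.36% of calls were false.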

Additional observations from a re-analysis of the deposited data

Results flagged for a closer look

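Mrc1 levels lay apart from Ctrl in opposite directions in 2 classes in D2. In microglia-like cells it was at 5.26 to 5.90 CPM in the Ctrl libraries and 7.22 to 9.78 CPM in D2, every D2 library above every Ctrl library, whereas in macrophage-like cells it was at 669.9 to 1054 CPM in Ctrl and 261 to 450.0 CPM in D2. The microglia-like difference did not pass the edgeR test (adjusted p = 0.0590) and turned sign with no upper limit on UMIs (-1.03). The macrophage-like one passed with D2-2 alone (adjusted p = 0.0194), the only D2 library with 20 such cells, and not with both D2 libraries (adjusted p = 0.377). The difference between the classes was not tested.

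Cd36 levels did so in both treated groups. In microglia-like cells it rose from 0.266 to 0.488 CPM in Ctrl to 7.65 to 11.8 CPM in D0 and 3.35 to 25.3 CPM in D2. In macrophage-like cells it was at 58.5 to 115 CPM in Ctrl, 11.1 to 36.2 CPM in D0 and 11.8 to 55.8 CPM in D2. The macrophage-like difference in D0 passed the edgeR test with D0-1 alone (adjusted p = 0.00562) but not with D0-2 added (adjusted p = 0.0757), and that in D2 passed neither way (adjusted p = 0.594 and 0.527). These differences between classes were not tested either.

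In D2-3, the library that the study left out, microglia-like cells had Msr1 at 14.9 CPM, against at most 2.34 CPM in a Ctrl library, and Cd36 at 155 CPM, against at most 0.488 CPM. Summed microglia markers in these cells were at 8691 CPM, and 531 of the 1808 cells of the library were monocyte-like. The part of either in the 2 values was not tested.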

How the results depend on the processing

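The number of receptors called in all kept myeloid cells was 4 in D0 and 2 in D2. It was 2 in D0 with Cell Ranger version as a term and with D2-3 included, and 4 in D2 with DESeq2, with no filter on low counts and with no upper limit on UMIs. Leaving out single libraries gave 2 to 4 in D0 and 2 to 4 in D2. In microglia-like cells 2 were called in each. In D0 this was 1 with the version term and with dividing clusters left out, 0 with D2-3, and 5 with no filter and with no upper limit, and in D2 it was 1 with the version term. Leaving out single libraries gave 1 to 3 in both. No receptor was called between D2 and D0 in any of these. Fold changes turned sign (log2) for Cd36 in kept myeloid cells thinned to 2000 UMIs (-0.32 in D0 and -0.31 in D2) and in D2 without D2-2 (-1.09, against up to 1.59 without D2-1), and for Msr1 there in D2 with D2-3 (2.14) or without D2-1 (0.14, and down to -0.48 without D2-2). In microglia-like cells they turned with no upper limit for Mrc1 (-1.50 in D0, -1.03 in D2) and Msr1 (-0.28 and -0.33), and for Msr1 in D0 with total-UMI scaling (-0.012), an alternative added after seeing the data, or without Ctrl-1 (-0.031, the range over single libraries being up to 0.52). With no upper limit, 149 to 423 further Ctrl barcodes per library, with Mrc1 at 13.4 to 49.3 CPM, joined the microglia-like cells. Other causes were not tested.

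Deviations of same-numbered libraries correlated at r = 0.17 to 0.41 for Ctrl with D0 and -0.13 to 0.26 for pairs with D2. Pairs with unlike numbers reached 0.35. With the replicate number as a block 4 and 2 receptors were called in kept myeloid cells and 2 and 2 in microglia-like cells, in D0 and D2. Genes called with the block were 3071 in place of 2604 and 2331 in place of 2253 in kept myeloid cells, and 2854 in place of 2447 and 2279 in place of 2301 in microglia-like cells.

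Of the lists, the lectins had 3 called in each group. In D0 this was 1 with D2-3, with thinned cells and with no upper limit, and 5 with no filter. In D2 it was 1 with the version term, with D2-3 and with no upper limit, and 5 with no filter. The lipid and heme list had 3 in D0 with D2-3, in place of 6. Without single libraries the lists had 2 to 3 and 1 to 4 other scavenger receptors called, 2 to 3 and 1 to 4 lectins, and 5 to 6 and 4 to 6 lipid and heme genes, in D0 and D2.

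In macrophage-like cells the fit of libraries with 20 cells, which rests on D0-1 and D2-2 alone, called 5 receptors in D0 (4 to 6 under the alternatives, 6 without any single Ctrl library) and 1 in D2. In D2 this was 0 with libraries of 10 cells and with no upper limit, 2 with only the groups compared, 3 with the version term, 4 with no filter, 6 in the cluster joined with dendritic cell-like cells and 2 to 3 without single Ctrl libraries. Between D2 and D0 it was 0, but 2 with the version term and with no filter (0 to 2 without single Ctrl libraries). Mrc1 in D0, at -3.73, was -2.64 with libraries of 10 cells, and in cells with 3 or more macrophage markers its pooled level was 853 CPM in D0 against 1627 CPM in Ctrl. Cd163 in D2, at 0.03, turned to -0.092 with the version term, -1.78 in the joined cluster, -0.22 with 10 cells and -0.065 with no filter, and was -0.23 to 0.29 without single Ctrl libraries. A replicate block leaves no residual degrees of freedom there, leaving out D0-1 or D2-2 leaves no library of its group, and D2-3 had 4 cells of the class. At resolution 1.2, thinned or without the top doublet scores, no D2 library had 20 such cells.

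The difference in macrophage share from Ctrl, in percentage points, was 0.714 in D0 and -0.180 in D2 with the joined cluster. In D0 it was 1.24 as a ratio to microglia-like cells (exact permutation p = 0.1, the smallest possible), 0.0372 with no upper limit, 0.0752 without the top doublet scores, -3.20 at resolution 1.2, -3.26 with only the receptors left out of clustering and -1.76 by markers. In D2 it was 0.501 with D2-3, -3.42 at resolution 1.2, -3.44 with only the receptors left out, 0.714 as a ratio to microglia-like cells and -1.73 by markers. Without single libraries it was 0.230 to 1.01 and -2.12 to 1.76.

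Detection followed depth. In Ctrl macrophage-like cells Mrc1 was in 80.6% of unthinned cells and 47.6% at 1000 UMIs, and Stab1 in 80.5% and 36.0%. In microglia-like cells Stab1 was in 73.9% and 19.3% in Ctrl, 56.3% and 11.9% in D0 and 46.5% and 11.3% in D2, and Cd36 in 4.84% and 0.624% in D0 and 5.52% unthinned in D2. With no upper limit, macrophage-like cells held 70.7% of Ctrl Mrc1 UMIs and microglia-like cells 16.2% of Ctrl Cd36 UMIs, and with D2-3 microglia-like cells held 70.7% of D2 Cd36 UMIs.

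Genes called in D0 numbered 2604 in kept myeloid cells, but 480 with D2-3, 1124 with the version term, 1418 thinned, 3965 with total-UMI scaling and 1089 without Ctrl-3. In microglia-like cells they numbered 2447, but 495, 1372, 1345 and 3814, with 1241 without dividing clusters and 1220 without D0-2. In D2 they numbered 2253, but 938 with the version term, 1338 thinned and 808 without D2-2, and in microglia-like cells 2301, but 1176, 1405 and 1102, with 1314 with D2-3.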
